A study of Mus musculus with 6 samples.

Results

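Nucleolar ribosome assembly factors are the proteins that process ribosomal RNA and build the ribosomal subunits on it. A fixed list of 60 of their genes was followed in mouse peritoneal macrophages, out of 25044 genes in the deposited count table. The list was drawn up by gene name, with earlier results of these data known. All 60 were found, each had at least the required 60 counts over the 6 libraries (the lowest sum was 301, for Gar1), and all 60 passed the filter on low counts and were tested. They were divided into 27 small-subunit factors, 9 proteins of small nucleolar ribonucleoproteins (snoRNPs), 20 large-subunit factors and 4 multifunctional nucleolar proteins. The macrophages were collected 3 days after thioglycollate from C57BL/6 wild-type animals at 8 weeks of age. Thioglycollate is an irritant that recruits macrophages to the peritoneal cavity. In the trametinib group (3 libraries), adherent cells received trametinib, which blocks MEK1 and MEK2, the kinases upstream of ERK, at 100 nM for 2 h and then the bacterial ligand LPS at 100 ng/ml for 12 h. In the vehicle group (3 libraries), DMSO took the place of trametinib and the LPS was the same. Both groups thus carry LPS, and the study has no culture without it. The labels give 3 mice for the study and do not tie libraries to mice, so the 6 libraries do not stand for 6 mice, and a p value here reflects only how these samples spread, which may be technical.

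Ribosomes are assembled in the nucleolus. The 90S particle, or small-subunit processome, folds and cleaves the ribosomal RNA precursor around the U3 snoRNA, while box C/D and box H/ACA snoRNPs guide ribose methylation and pseudouridylation. Large-subunit factors then process the other part of the precursor, and late factors finish both subunits in the cytoplasm. In growing cells, signalling through ERK and mTOR and the transcription factor MYC are known to raise ribosome production. The comparison asks how blocking MEK alters the mRNAs of this machinery in LPS-treated macrophages.

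With trametinib, 53 of 60 assembly factor genes fell, none rose and 7 did not pass an adjusted p of 0.05. Over all 11286 genes tested, 34.3% passed, 18.4% as lower and 15.8% as higher. The number that passed, 3869, was 2428 without trametinib replicate 1 and 2538 without vehicle replicate 1. The median log2 fold change of the 60 genes, trametinib over vehicle, was −0.70, a fall of 38.3%, and the median over all genes tested was −0.01. All 60 fold changes were negative, against 50.8% over all genes tested, and ran from −1.37 for Utp20 to −0.05 for Npm1. Of the genes that fell, 13 did so at least 2-fold, against 413 of all 11286 genes tested. In 57 of 60 genes every trametinib library lay below every vehicle library, against 25.9% of all genes tested, and in none did every trametinib library lie above, against 23.4%. Leaving out any single library gave 50 to 53 genes lower and none higher, and leaving out vehicle replicate 3 gave 53. Levels are counts scaled to the library total (CPM), with edgeR's TMM factors applied to that total, and p values come from edgeR's quasi-likelihood test with Benjamini-Hochberg adjustment over all genes tested. These are bulk samples, in which fewer cells of a type and less RNA per cell cannot be told apart.

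**Figure D1:**
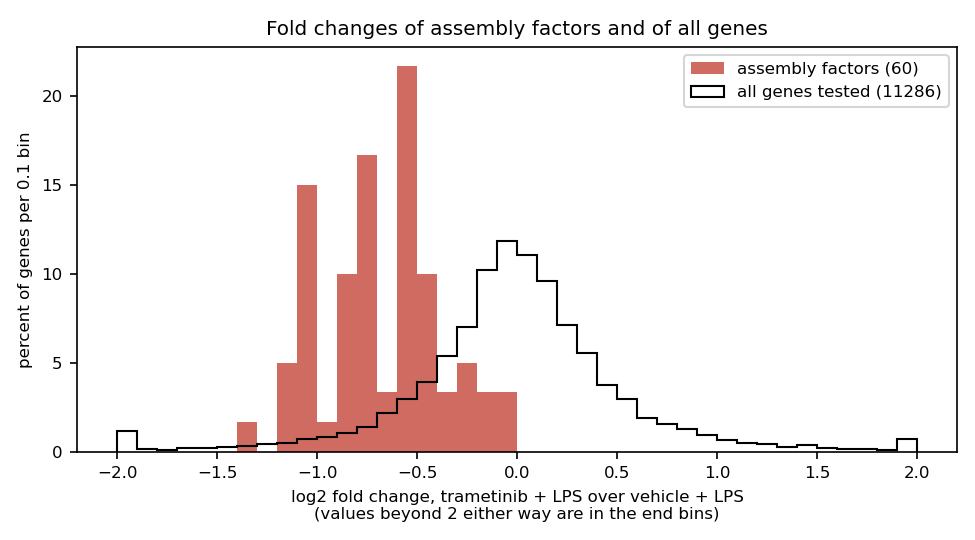
Percent of genes (vertical axis) per bin of 0.1 in the log2 fold change, trametinib over vehicle (horizontal axis), for the 60 assembly factors (filled) and the 11286 genes tested (outline). The assembly factors all lie left of 0, with a median of −0.70, while the genes tested are centred at −0.01.

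Added together, the 60 genes had 1309, 1286 and 1419 CPM in trametinib replicates 1, 2 and 3, against 1951, 1989 and 1911 CPM in vehicle replicates 1, 2 and 3. The summed levels of the groups did not overlap, and the trametinib mean was 0.686 times the vehicle mean. Among the trametinib libraries, replicate 3 was the highest in 46 of 60 genes. Relative to the mean of vehicle replicates 1 and 2, the median gene stood at −0.75, −0.76 and −0.57 in trametinib replicates 1, 2 and 3 and at −0.07 in vehicle replicate 3, as differences in log2(CPM + 0.5). In vehicle replicate 3 the lowest genes stood at −0.98 (Fbl), −0.49 (Rrp9), −0.48 (Rrp1b) and −0.44 (Nob1). It was the lowest vehicle library in 34 of 60 genes (56.7%), against 40.7% of all genes tested. In 33 of 60 genes it lay between the trametinib libraries and the other vehicle libraries, against 1705 of 11286 genes tested. Only genes with every trametinib library below every vehicle library can show this order. Among those genes it was 33 of 57 on the list and 1705 of 2920 over all genes tested, which are similar shares. Vehicle replicate 3 lay apart in the genes used to check the drug (Dusp6, Spry2, Egr1, Etv4, Etv5, Spred1 and Phlda1, outputs of ERK signalling), whose summed level was 45.9, 48.6 and 47.0 CPM in the trametinib libraries, against 381, 390.5 and 193 CPM in the vehicle libraries. Most of that sum was Spred1, at 45.3, 47.8 and 46.2 CPM in the trametinib libraries, against 343, 351 and 184 CPM in the vehicle libraries. Vehicle replicate 3 was the lowest vehicle library in every tested gene of the check. Dusp6 had 14.5, 17.1 and 2.11 CPM in vehicle replicates 1, 2 and 3. All 6 tested genes of that check fell, and Etv4 was too low to test.

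**Figure D2:**
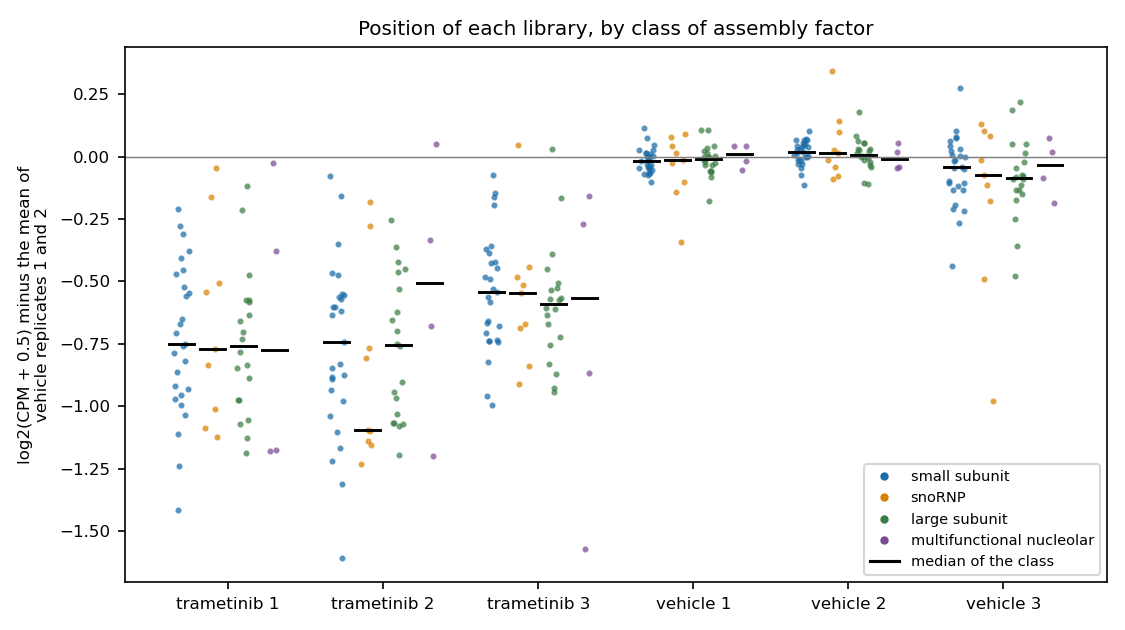
Each assembly factor's log2(CPM + 0.5) minus its mean in vehicle replicates 1 and 2 (vertical axis), by library (horizontal axis) and class (colour), with the class median as a black line. The class medians of the trametinib libraries lie between −1.10 and −0.51, and those of vehicle replicate 3 between −0.08 and −0.03; vehicle replicates 1 and 2 define 0.

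The libraries held 17453778 to 19648467 counts. All 8 macrophage markers were detected (Adgre1, Csf1r, Cd68, Itgam, Cd14, Lyz2, Mertk and Fcgr1), and their sum was 14767 to 16402 CPM with trametinib and 15783 to 17563 CPM with vehicle; 2 of them fell (Adgre1 and Itgam) and 2 rose (Cd14 and Mertk). The 8 neutrophil markers together gave 2.896 to 7.95 CPM with trametinib and 3.296 to 6.06 CPM with vehicle, and Retnlg, Mcpt4 (mast cells) and Msln (mesothelium) were at 0 in every library. The 6 B cell markers gave 0.278 to 0.7096 CPM with trametinib and 0.224 to 0.335 CPM with vehicle, the 6 markers of T and NK cells with a row summed to 0.0537 to 0.296 CPM with trametinib and 0.108 to 0.393 CPM with vehicle, the 8 eosinophil and mast cell markers 5.12 to 8.87 CPM with trametinib and 4.81 to 7.52 CPM with vehicle, and the 8 fibroblast and mesothelium markers 0.473 to 3.01 CPM with trametinib and 0.756 to 1.402 CPM with vehicle. Of the 5 markers of resident large peritoneal macrophages 3 were tested and 1 (Cd93) fell. Their sum was 60.1 to 69.2 CPM with trametinib and 83.6 to 101 CPM with vehicle. Nearly all of it was Cd93, with a mean of 62.4 CPM with trametinib and 85.8 CPM with vehicle. Icam2 and Timd4 did not pass, and Gata6 and Selp were too low to test. The 4 nuclear-retained RNAs summed to 1431 to 2064 CPM with trametinib and 1355 to 1923 CPM with vehicle, and none of the 3 tested passed. Of 8 cell cycle genes 6 were tested and none passed, and their sum was 263 to 295 CPM with trametinib and 247 to 304 CPM with vehicle. The 13 mitochondrially encoded mRNAs summed to 7963 to 18534 CPM with trametinib and 7128 to 8660.1 CPM with vehicle. Replicate 2 was at the upper end in both groups. Of these mRNAs, mt-Co2 had 2158 CPM in trametinib replicate 2 and 110 CPM in vehicle replicate 2. In the other libraries it had 3.02 to 6.27 CPM. By contrast, mt-Nd1 was lowest in replicate 2 in both groups (478 CPM with trametinib and 507 CPM with vehicle). Without trametinib replicate 2 the median log2 fold change of the 60 genes was −0.65 and 51 were lower. Markers of the other cell types were thus low beside those of macrophages in both groups. Whether the macrophage markers that moved, Cd93 included, have a part in the fall of the assembly factors was not tested.

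The promoters of the listed genes were read for CACGTG, the E-box that MYC and related factors bind. This motif is its own reverse complement and so is searched on both strands at once. Whether it has a part in the fall was not tested. RefSeq promoter windows on GRCm38.p6 (mm10), from 250 bases before the start to 50 after it, were at hand for 48 of the 60 genes. The motif stood in 13 of the 48 (27.1%), against 12.1% of 9031 tested genes and 8.09% of all 27025 genes with a window of the same length. It was found in 8 of 21 small-subunit genes, 0 of 8 snoRNP genes, 4 of 16 large-subunit genes and 1 of 3 multifunctional genes. In 9 of the 13 the match lay after the start, against 169 of 1096 tested genes with a match. All 13 genes with the motif fell, with a median log2 fold change of −0.79. Of the 35 without it 31 fell, with a median of −0.72. Over all genes tested, 18.4% fell. The matches are shown with up to 10 bases on each side, 5′ to 3′ along the gene, the motif in capitals.
Imp4, chr1:34439698-34439723, plus strand: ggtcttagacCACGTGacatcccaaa
Ltv1, chr10:13193094-13193119, minus strand: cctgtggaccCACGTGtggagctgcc
Mybbp1a, chr11:72441357-72441376, plus strand: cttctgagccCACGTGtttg
Nle1, chr11:82908357-82908382, minus strand: ggttctcctcCACGTGgggacgcagg
Nmd3, chr3:69721931-69721956, plus strand: ccccttgctaCACGTGtattctttga
Nop2, chr6:125131813-125131838, plus strand: gtccctggatCACGTGtgttccggtg
Pes1, chr11:3963967-3963992, plus strand: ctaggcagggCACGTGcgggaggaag
Pno1, chr11:17211540-17211562, minus strand: tacaaccacgCACGTGttcctct
Tsr1, chr11:74898094-74898119, plus strand: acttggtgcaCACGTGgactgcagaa
Utp18, chr11:93885771-93885796, minus strand: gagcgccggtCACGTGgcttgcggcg
Utp20, chr10:88826765-88826787, minus strand: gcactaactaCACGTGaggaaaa
Utp4, chr8:106893645-106893670, plus strand: cgcaagcgcgCACGTGgggccggggc
Wdr43, chr17:71616222-71616247, plus strand: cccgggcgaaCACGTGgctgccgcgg
Longer stretches, from 150 bases before the start to 30 after it, are shown for Tsr1, which fell and holds the motif (in capitals, at the end), and for Nop56, which fell by a similar amount and has no CACGTG in its window.
Tsr1, chr11:74897930-74898109, plus strand: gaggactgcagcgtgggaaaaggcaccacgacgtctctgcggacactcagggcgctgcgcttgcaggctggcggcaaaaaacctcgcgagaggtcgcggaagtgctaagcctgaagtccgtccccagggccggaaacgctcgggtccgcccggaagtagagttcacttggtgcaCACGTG
Nop56, chr2:130274262-130274441, plus strand: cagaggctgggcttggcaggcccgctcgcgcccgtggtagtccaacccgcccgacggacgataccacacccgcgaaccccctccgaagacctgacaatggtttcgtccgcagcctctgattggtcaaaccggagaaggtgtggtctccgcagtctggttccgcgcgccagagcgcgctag
The match in Utp20, the gene that fell most, begins at base 38 counted from the RefSeq start, and those of Utp18 and Nop2 begin 20 and 60 bases before it. The 12 genes without a window here were Npm1, Tbl3, Bop1, Utp6, Nol6, Gnl2, Wdr36, Gnl3l, Rrp12, Fbl, Utp11 and Rrs1. Myc itself had 0.7096, 0.107 and 0.334 CPM in the trametinib libraries, against 1.07, 1.62 and 0.2702 CPM in the vehicle libraries; its groups overlapped and it did not pass (log2 ratio −1.37, adjusted p = 0.194). A match is a description of these letters and not a measured site.

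Of the 27 small-subunit factors 25 fell and 2 did not pass, with a median log2 fold change of −0.71. In all 27 the trametinib libraries lay below the vehicle libraries. Over all genes tested, 18.4% fell, and in 25.9% the trametinib libraries lay below. Utp20, a very large scaffold protein of the processome (ENSMUSG00000004356, mm10 chromosome 10, 88746607 to 88826804, minus strand), had 9.17, 7.95 and 12.4 CPM in the trametinib libraries, against 25.3, 25.3 and 25.8 CPM in the vehicle libraries. The vehicle libraries differed by little and the groups were far apart. Utp20 fell (log2 ratio −1.37 with an SE of 0.15, adjusted p = 0.000447), the largest change of the 60 genes. Rrp12, which takes part in the maturation and export of pre-40S particles (ENSMUSG00000035049, mm10 chromosome 19, 41862851 to 41896173, minus strand), had 3.37, 3.39 and 4.51 CPM in the trametinib libraries, against 8.02, 7.70 and 9.62 CPM in the vehicle libraries. There was no overlap between groups, and Rrp12 fell (log2 ratio −1.17 with an SE of 0.16, adjusted p = 0.00106). Tsr1, a GTPase-like factor that holds late pre-40S particles in an inactive form (ENSMUSG00000038335, mm10 chromosome 11, 74898071 to 74909342, plus strand), had 4.32, 4.08 and 5.35 CPM in the trametinib libraries, against 10.7, 11.1 and 8.97 CPM in the vehicle libraries. Vehicle replicate 3 was the lowest vehicle library for Tsr1 and still above every trametinib library, and the gene fell (log2 ratio −1.16 with an SE of 0.15, adjusted p = 0.000734). Heatr1, the counterpart of yeast Utp10 and a member of the UTP-A complex that binds the start of the precursor, had 17.4, 14.6 and 21.5 CPM in the trametinib libraries, against 34.7, 34.7 and 31.9 CPM in the vehicle libraries. Every trametinib library was below every vehicle library, and Heatr1 fell (log2 ratio −0.92 with an SE of 0.13, adjusted p = 0.00122).

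By subcomplex of the processome, most listed genes fell, against 18.4% of all genes tested. All 5 listed genes of UTP-A (Heatr1, Utp4, Utp15, Wdr43 and Wdr75) fell, with log2 fold changes of −0.92 to −0.37. All 6 genes of UTP-B (Pwp2, Tbl3, Wdr3, Wdr36, Utp6 and Utp18), a scaffold built largely of WD40 repeat proteins, fell with log2 fold changes of −0.87 to −0.40. Of the 3 genes of the Mpp10 complex, which stabilises the pairing of U3 with the precursor, Mphosph10 and Imp4 fell (−0.49 and −0.45 on the log2 scale, adjusted p 0.0153 and 0.00258). The call for Mphosph10 was lost without trametinib replicate 1 (adjusted p 0.0668) and without trametinib replicate 2 (0.0692), with a span from 0.00247 to 0.0692 across all alternatives. Imp3, their partner, had 9.17, 9.996 and 10.6 CPM in the trametinib libraries, against 11.4, 10.99 and 11.8 CPM in the vehicle libraries. The groups did not overlap, but Imp3 did not pass (log2 ratio −0.20 with an SE of 0.10, adjusted p = 0.157). The differences between subcomplexes were not tested.

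Factors that join the processome outside these complexes included Nop14 and its partner Noc4l (−0.77 and −0.50 on the log2 scale, adjusted p 0.00529 and 0.00694), Utp14a, an activator of a processome helicase in yeast (−0.88, adjusted p 0.000734), Utp11 (−0.52, adjusted p 0.002002) and Nol6, the counterpart of yeast Utp22 (−0.74, adjusted p 0.00134). Bms1, the GTPase of the processome, had 32.8, 28.1 and 38.2 CPM in the trametinib libraries, against 43.2, 42.5 and 46.1 CPM in the vehicle libraries. The groups did not overlap, and Bms1 fell (log2 ratio −0.41 with an SE of 0.11, adjusted p = 0.0194). The Bms1 call was lost without trametinib replicates 1 and 2 (adjusted p 0.0705 and 0.0547) and without vehicle replicate 1 (0.0535), with a span from 0.00366 to 0.0705 across all alternatives. Utp3, also called Sas10, a processome factor with a role in gene silencing in yeast, had 32.5, 35.6 and 33.9 CPM in the trametinib libraries, against 36.5, 38.7 and 39.2 CPM in the vehicle libraries. The groups were close without overlapping, and Utp3 did not pass (log2 ratio −0.17 with an SE of 0.07, adjusted p = 0.112).

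All 5 factors of pre-40S maturation and export on the list fell (Rrp12, Tsr1, Ltv1, Nob1 and Pno1), against 18.4% of all genes tested. Their log2 fold changes were −1.17 to −0.72. Pno1, which covers the cleavage site of Nob1 until the end of maturation, had 18.6, 20.1 and 22.2 CPM in the trametinib libraries, against 34.9, 38.3 and 31.9 CPM in the vehicle libraries. Again no libraries overlapped, and Pno1 fell (log2 ratio −0.79 with an SE of 0.10, adjusted p = 0.000755). Nob1, the endonuclease that makes the mature end of 18S rRNA, had 5.56, 5.27 and 5.29 CPM in the trametinib libraries, against 9.48, 10.04 and 7.08 CPM in the vehicle libraries. Vehicle replicate 3 was the lowest vehicle library for Nob1, above every trametinib library, and Nob1 fell (log2 ratio −0.72 with an SE of 0.15, adjusted p = 0.00666). Ltv1, released from late particles by phosphorylation, fell (log2 ratio −0.86 with an SE of 0.09, adjusted p = 0.000379).

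**Figure D3:**
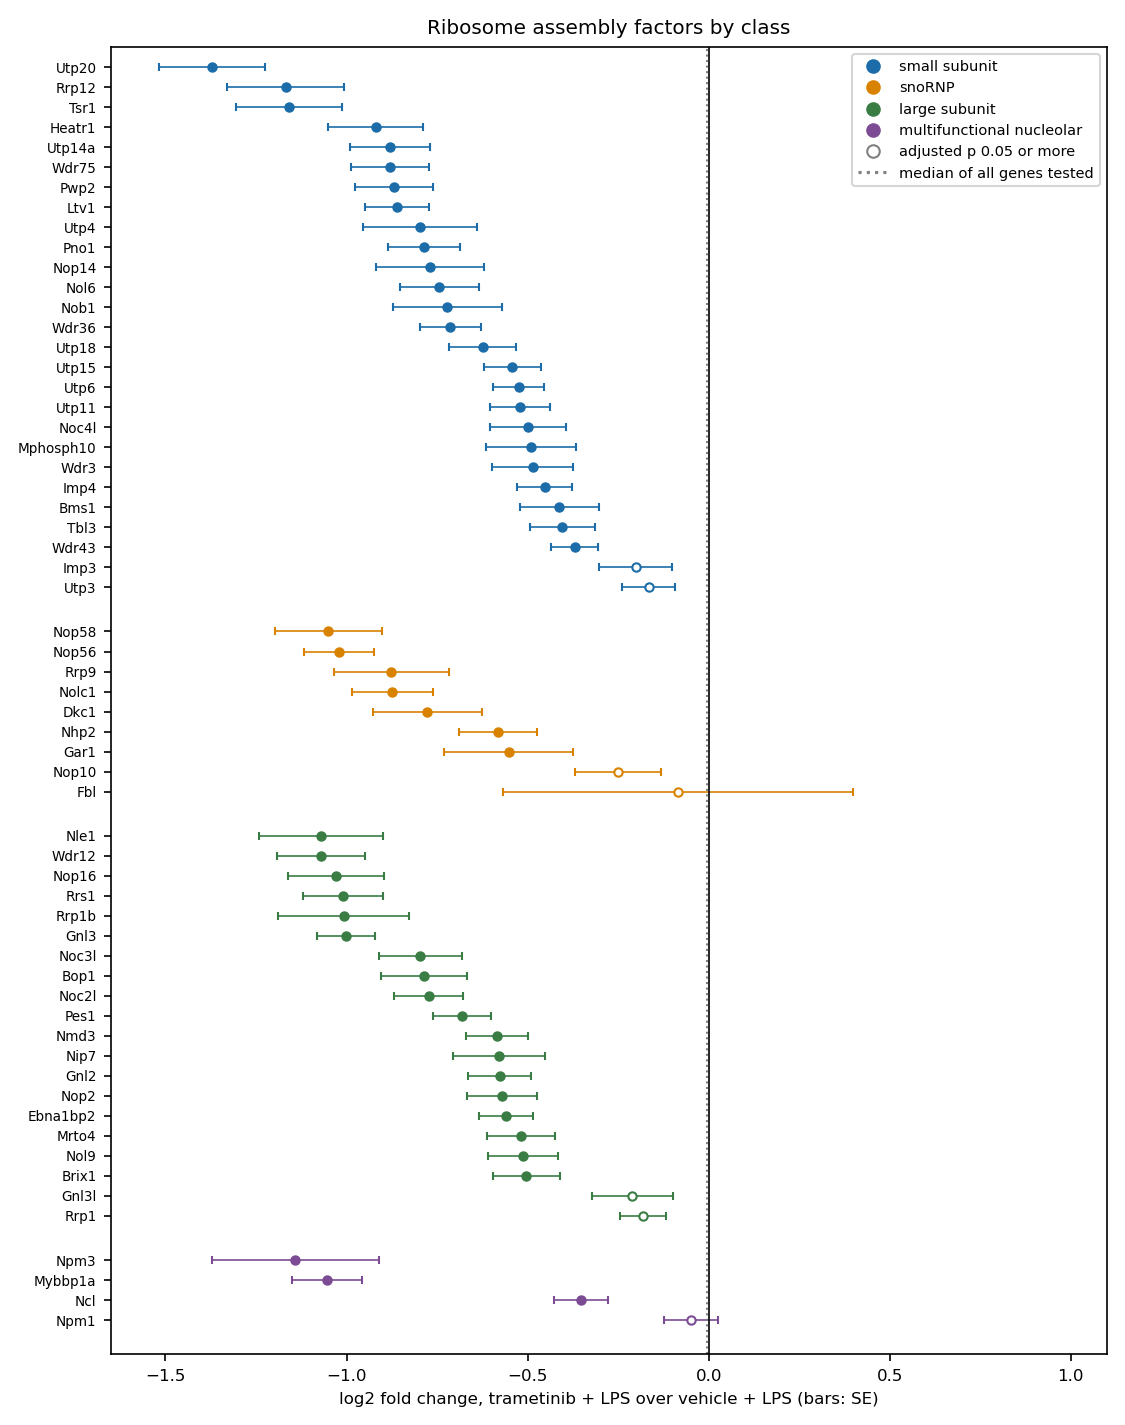
Log2 fold change, trametinib over vehicle (horizontal axis, bars are SE), for the 60 assembly factors grouped by class and ordered by size; filled points passed an adjusted p of 0.05 and open points did not. All points lie left of 0, and the 7 open points are Utp3, Imp3, Fbl, Nop10, Rrp1, Gnl3l and Npm1.

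Of the 9 snoRNP proteins 7 fell and 2 did not pass, with a median log2 fold change of −0.78. Over all genes tested, 18.4% fell. In box C/D snoRNPs the scaffold genes Nop56 and Nop58 fell together. Nop58 (ENSMUSG00000026020, mm10 chromosome 1, 59684971 to 59719044, plus strand) had 7.87, 7.47 and 10.5 CPM in the trametinib libraries, against 15.6, 19.1 and 18.9 CPM in the vehicle libraries. Nop56 (ENSMUSG00000027405, mm10 chromosome 2, 130274430 to 130279313, plus strand) had 15.1, 14.99 and 17.7 CPM in the trametinib libraries, against 33.9, 33.3 and 29.7 CPM in the vehicle libraries. Neither gene's groups overlapped, and Nop58 fell (log2 ratio −1.05 with an SE of 0.15, adjusted p = 0.00115) and Nop56 fell (log2 ratio −1.02 with an SE of 0.10, adjusted p = 0.0002899). Fibrillarin (Fbl), the methyltransferase that acts in the same particles, had 13.96, 5.86 and 14.9 CPM in the trametinib libraries, against 11.3, 18.4 and 7.08 CPM in the vehicle libraries. Its libraries spread widely inside both groups, which overlapped, and it did not pass (log2 ratio −0.08 with an SE of 0.48, adjusted p = 0.913). The fold change of Fbl turned positive without trametinib replicate 2 (0.24) and without vehicle replicate 2 (0.33). Fbl had the largest coefficient of variation of the 60 genes in both groups, 43.0% with trametinib and 46.8% with vehicle, where the median gene had 10.1% with trametinib and 5.68% with vehicle.

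Among the box H/ACA proteins, Dkc1, dyskerin, the pseudouridine synthase, had 3.37, 3.39 and 4.23 CPM in the trametinib libraries, against 5.66, 6.58 and 6.59 CPM in the vehicle libraries. Nhp2, a core protein that binds the guide RNA, had 14.2, 11.7 and 15.3 CPM in the trametinib libraries, against 20.7, 21.1 and 19.8 CPM in the vehicle libraries. Both genes kept their groups apart, and Dkc1 fell (log2 ratio −0.78 with an SE of 0.15, adjusted p = 0.00470) and Nhp2 fell (log2 ratio −0.58 with an SE of 0.11, adjusted p = 0.00381). Gar1, a core protein that contacts the catalytic subunit, had 2.13, 2.58 and 2.06 CPM in the trametinib libraries, against 3.48, 3.01 and 3.46 CPM in the vehicle libraries, the fewest counts of the list. Its groups did not overlap, and it fell (log2 ratio −0.55 with an SE of 0.18, adjusted p = 0.03997), but this call was lost with DESeq2 (adjusted p 0.142), with all genes kept whatever their counts (0.0616) and without any one library other than trametinib replicate 2 (0.0653 to 0.1297), with a span from 0.0397 to 0.142 across all alternatives. Nop10, the smallest core protein, had 14.1, 13.9 and 10.97 CPM in the trametinib libraries, against 16.8, 15.01 and 14.6 CPM in the vehicle libraries. The groups were close without overlapping, and Nop10 did not pass (log2 ratio −0.25 with an SE of 0.12, adjusted p = 0.136). Nolc1 (Nopp140), a chaperone that carries snoRNPs between Cajal bodies and nucleoli, had 16.1, 13.3 and 18.2 CPM in the trametinib libraries, against 30.1, 28.3 and 28.9 CPM in the vehicle libraries. Rrp9, a protein specific to the U3 snoRNP, had 6.801, 6.396 and 7.74 CPM in the trametinib libraries, against 13.97, 14.5 and 9.996 CPM in the vehicle libraries. For Nolc1 the vehicle libraries lay close together, for Rrp9 vehicle replicate 3 was the lowest of them, and neither gene's groups overlapped; Nolc1 fell (log2 ratio −0.87 with an SE of 0.11, adjusted p = 0.000793) and Rrp9 fell (log2 ratio −0.88 with an SE of 0.16, adjusted p = 0.00355).

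Of the 20 large-subunit factors 18 fell and 2 did not pass, with a median log2 fold change of −0.63. In 19 of the 20 every trametinib library lay below every vehicle library. Over all genes tested, 18.4% fell, and in 25.9% the trametinib libraries lay below. Nle1 (Notchless), which binds the AAA ATPase that remodels pre-60S particles (ENSMUSG00000020692, mm10 chromosome 11, 82900768 to 82908411, minus strand), had 2.37, 2.58 and 3.06 CPM in the trametinib libraries, against 4.82, 6.31 and 5.73 CPM in the vehicle libraries. The groups did not overlap, and Nle1 fell (log2 ratio −1.07 with an SE of 0.17, adjusted p = 0.00201). Wdr12, part of the PeBoW complex (ENSMUSG00000026019, mm10 chromosome 1, 60069785 to 60098645, minus strand), had 4.199, 4.35 and 4.901 CPM in the trametinib libraries, against 9.53, 9.99 and 8.75 CPM in the vehicle libraries. The groups were again apart, and Wdr12 fell (log2 ratio −1.07 with an SE of 0.12, adjusted p = 0.000502). Its partners Pes1 and Bop1, with which it acts in processing of the 32S precursor, also fell (−0.68 and −0.79 on the log2 scale, adjusted p 0.000574 and 0.00159). Nop16, an early pre-60S factor, had 4.67, 5.11 and 6.13 CPM in the trametinib libraries, against 11.3, 11.3 and 9.94 CPM in the vehicle libraries. Rrs1, which brings the 5S RNP into the large subunit in yeast, had 20.5, 19.2 and 24.5 CPM in the trametinib libraries, against 41.8, 39.8 and 47.6 CPM in the vehicle libraries. In Rrs1 vehicle replicate 3 was the highest library, the groups of both genes were apart, and Nop16 fell (log2 ratio −1.03 with an SE of 0.13, adjusted p = 0.000797) and Rrs1 fell (log2 ratio −1.01 with an SE of 0.11, adjusted p = 0.0004603).

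Among the nucleolar GTPases on the list Gnl3 and Gnl2 fell and Gnl3l did not pass. Gnl3 (nucleostemin) had 12.8, 12.3 and 13.8 CPM in the trametinib libraries, against 25.6, 25.5 and 26.5 CPM in the vehicle libraries. Its relative Gnl3l had 24.6, 20.7 and 27.3 CPM in the trametinib libraries, against 26.5, 27.01 and 30.5 CPM in the vehicle libraries. Gnl3 had groups far apart and fell (log2 ratio −1.002 with an SE of 0.08, adjusted p = 0.000181), whereas those of Gnl3l overlapped, with trametinib replicate 3 above vehicle replicates 1 and 2, and it did not pass (log2 ratio −0.21 with an SE of 0.11, adjusted p = 0.183). Gnl2, another GTPase of the pre-60S pathway, fell (log2 ratio −0.58 with an SE of 0.09, adjusted p = 0.00157). Of Rrp1 and its paralog Rrp1b, both nucleolar proteins of the large-subunit pathway, Rrp1b passed and Rrp1 did not. Rrp1 had 103, 101 and 107 CPM in the trametinib libraries, against 117, 123 and 113 CPM in the vehicle libraries. Rrp1b had 3.78, 3.39 and 4.12 CPM in the trametinib libraries, against 9.09, 7.76 and 5.89 CPM in the vehicle libraries. The groups of both genes were apart, narrowly for Rrp1, and Rrp1b fell (log2 ratio −1.01 with an SE of 0.18, adjusted p = 0.00342) while Rrp1 did not pass (log2 ratio −0.18 with an SE of 0.06, adjusted p = 0.05395). Rrp1 passed with the replicate number as a block (adjusted p 0.0486) and without vehicle replicate 3 (0.0204), with a span from 0.0204 to 0.1903 across all alternatives. The difference in response within each pair was not tested.

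Noc2l and Noc3l, counterparts of the yeast Noc proteins that travel with pre-60S particles, both fell. Noc2l had 48.5, 46.5 and 58.9 CPM in the trametinib libraries, against 92.7, 87.4 and 83.05 CPM in the vehicle libraries. Its lowest vehicle library stood above its highest trametinib library, and Noc2l fell (log2 ratio −0.77 with an SE of 0.10, adjusted p = 0.000693); Noc3l fell (log2 ratio −0.80 with an SE of 0.11, adjusted p = 0.00126). Nip7, a factor of large-subunit maturation, had 9.23, 9.46 and 10.4 CPM in the trametinib libraries, against 15.03, 16.3 and 12.1 CPM in the vehicle libraries. For Nip7 vehicle replicate 3 was the lowest vehicle library, above the trametinib libraries, and the gene fell (log2 ratio −0.58 with an SE of 0.13, adjusted p = 0.00824). The genes of Nop2, a methyltransferase of 28S rRNA, of Nol9, a polynucleotide kinase of the precursor, and of Brix1, Ebna1bp2, Mrto4 and Nmd3 fell with log2 fold changes of −0.56 to −0.50 for the structural factors Ebna1bp2 and Brix1, −0.57 for Nop2, −0.51 for Nol9, −0.52 for Mrto4, which holds the place of the P stalk, and −0.59 for Nmd3, the export adaptor of the large subunit.

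Of the 4 multifunctional nucleolar proteins 3 fell and 1 did not pass, where 18.4% of all genes tested fell. Mybbp1a, a nucleolar regulator of transcription and RNA processing (ENSMUSG00000040463, mm10 chromosome 11, 72441355 to 72451768, plus strand), had 41.5, 40.9 and 51.7 CPM in the trametinib libraries, against 91.1, 98.2 and 89.1 CPM in the vehicle libraries. Npm3, a partner of nucleophosmin, had 3.02, 4.46 and 2.17 CPM in the trametinib libraries, against 7.68, 7.198 and 6.48 CPM in the vehicle libraries. The groups of both genes were apart, and Mybbp1a fell (log2 ratio −1.05 with an SE of 0.10, adjusted p = 0.000268) and Npm3 fell (log2 ratio −1.14 with an SE of 0.23, adjusted p = 0.00575). Nucleolin (Ncl), an abundant protein that binds the nascent precursor, had 169, 174 and 182 CPM in the trametinib libraries, against 217, 222 and 231 CPM in the vehicle libraries. The groups did not overlap, and Ncl fell (log2 ratio −0.35 with an SE of 0.07, adjusted p = 0.00666), the smallest change among the genes that passed. Nucleophosmin (Npm1), a chaperone that forms much of the granular part of the nucleolus, had 134, 142 and 123 CPM in the trametinib libraries, against 141, 133 and 139 CPM in the vehicle libraries. Its groups overlapped, and Npm1 did not pass (log2 ratio −0.05 with an SE of 0.08, adjusted p = 0.645); without trametinib replicate 3 its fold change was 0.01.

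**Figure D4:**
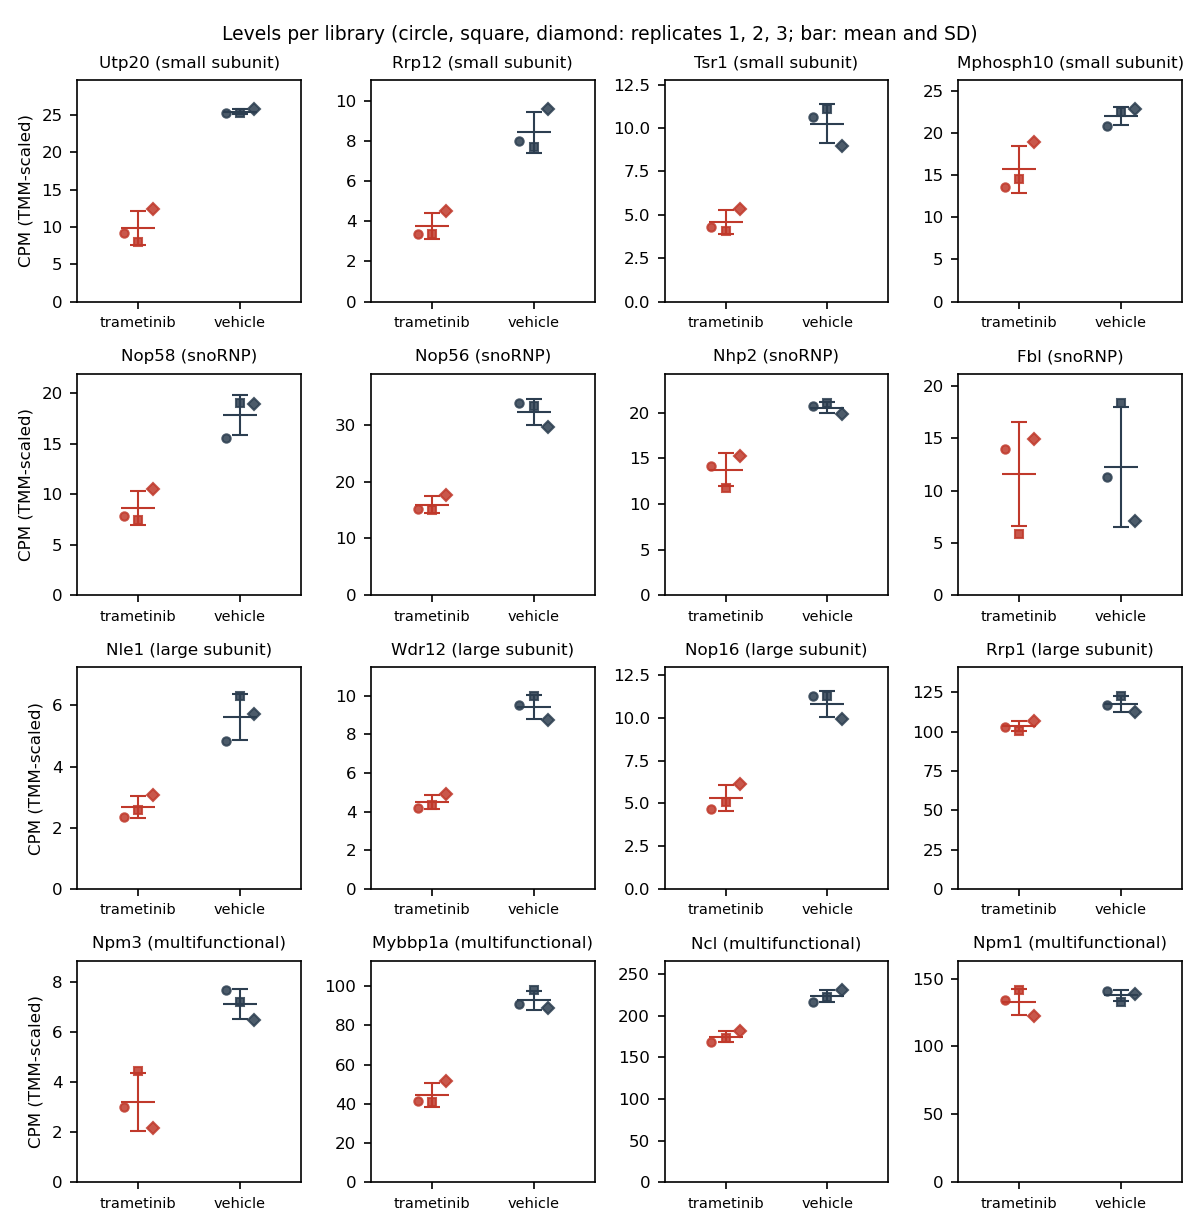
CPM (vertical axis, from 0) of 16 assembly factors in the trametinib and vehicle libraries (horizontal axis); symbols mark replicates 1, 2 and 3, and bars give the mean and SD. Utp20, Nop56, Nle1 and Mybbp1a show trametinib libraries far below the vehicle libraries, Ncl and Rrp1 a narrow gap, and Fbl and Npm1 overlapping groups.

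Levels per length were set out as TPM, which divides the counts of a gene by its length and scales to a common total, with the length of 1 annotated transcript per gene. Npm1 had the highest level, 187 ± 1.42 TPM with trametinib and 205 ± 12.2 TPM with vehicle (SD, n = 3 each). Next came Rrp1 with 120.2 ± 11.9 TPM with trametinib and 144 ± 2.701 TPM with vehicle, Noc2l with 42.6 ± 8.61 TPM with trametinib and 76.5 ± 2.58 TPM with vehicle, Ncl with 49.1 ± 5.12 TPM with trametinib and 66.3 ± 4.92 TPM with vehicle and Utp3 with 47.99 ± 3.36 TPM with trametinib and 56.95 ± 4.096 TPM with vehicle. In vehicle the gaps between these 5 exceeded the sum of neighbouring SDs, while Utp3 and Pno1, the next in order, differed by less. With trametinib Noc2l lay below Ncl and Utp3, within the sum of the SDs. The Ncl value is a low estimate if a shorter form is used, since its annotated transcript has 8202 bases. At the low end lay Wdr12 with 1.03 ± 0.155 TPM with trametinib and 2.28 ± 0.0643 TPM with vehicle, whose annotated transcript of 10012 bases is the longest of the list, and Rrp1b with 1.78 ± 0.296 TPM with trametinib and 3.76 ± 0.679 TPM with vehicle. Of the 5 genes at the highest levels in vehicle, Noc2l and Ncl fell, and Npm1, Rrp1 and Utp3 did not pass. Across the 60 genes the log2 fold change ran with the log2 TPM in vehicle (Pearson's r = 0.47, Spearman's rho = 0.38) and little with the log2 transcript length (r = −0.21, rho = −0.13). These are descriptions across genes of the same libraries, which are not independent, and the level and the fold change share the vehicle counts.

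**Figure D5:**
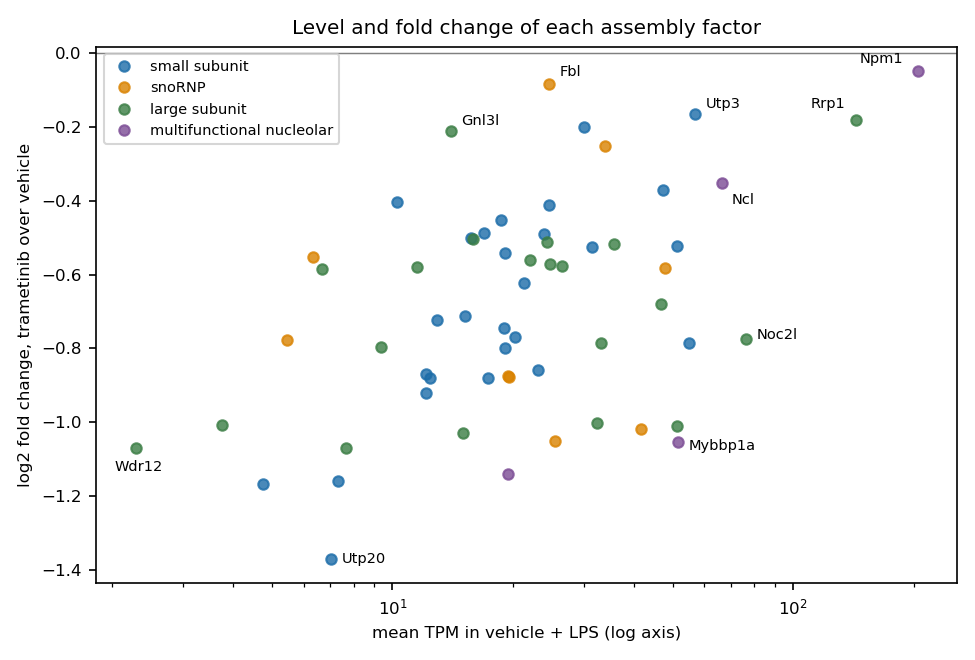
Mean TPM in vehicle (horizontal log axis) and log2 fold change, trametinib over vehicle (vertical axis), for each of the 60 assembly factors, coloured by class. Npm1, at 205 TPM, lies near 0, and Utp20, at 7.02 TPM, is the lowest point.

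Other genes of ribosome assembly, from lists drawn up by function, were counted in the same fit, in which 18.4% of all genes tested were lower and 15.8% higher. Of 25 tested genes of further small-subunit factors 14 fell and none rose, with a median log2 fold change of −0.32. Bysl, which acts beside Nob1 and Pno1, had 5.44 ± 1.07 CPM with trametinib and 12.6 ± 1.72 CPM with vehicle (SD, n = 3 each, log2 fold change −1.21, adjusted p 0.00105), and Nat10, an acetyltransferase of 18S rRNA, had 8.02 ± 1.56 CPM with trametinib and 16.3 ± 1.89 CPM with vehicle (SD, n = 3 each, log2 fold change −1.02, adjusted p 0.00139). Krr1 and Rcl1 were among the 11 that did not pass (−0.03 and 0.02 on the log2 scale, adjusted p 0.812 and 0.925). Of 32 tested genes of further large-subunit factors 23 fell and none rose, with a median of −0.53. Rrp15, a factor of large-subunit precursor processing, had 1.54 ± 0.528 CPM with trametinib and 3.94 ± 0.0813 CPM with vehicle (SD, n = 3 each, log2 fold change −1.35, adjusted p 0.00321). Sbds, which acts in the last step of large-subunit maturation in the cytoplasm, had 62.9 ± 3.27 CPM with trametinib and 62.6 ± 4.16 CPM with vehicle (SD, n = 3 each, log2 fold change 0.01, adjusted p 0.959). Its partner in that step, Efl1, also did not pass (−0.26, adjusted p 0.0962), and Eif6, which the pair releases, fell (log2 ratio −0.45, adjusted p = 0.00991).

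Of 11 tested genes that assemble snoRNPs 4 fell (36.4%, against 18.4% of all genes tested), 7 did not pass and none rose (median log2 fold change −0.27). Znhit6, an assembly factor of box C/D snoRNPs, had 3.46 ± 0.673 CPM with trametinib and 7.19 ± 0.694 CPM with vehicle (SD, n = 3 each, log2 fold change −1.05, adjusted p 0.00187). Snu13, the fourth core protein of box C/D snoRNPs, had 14.4 ± 6.399 CPM with trametinib and 24.8 ± 3.64 CPM with vehicle (SD, n = 3 each, log2 fold change −0.78, adjusted p 0.130) and did not pass. Of 13 tested genes of the RNA exosome, which trims the precursor, and its cofactors 8 fell and none rose (median −0.35), with Exosc10, the nuclear catalytic subunit, at 39.3 ± 3.02 CPM with trametinib and 53.5 ± 1.17 CPM with vehicle (SD, n = 3 each, log2 fold change −0.44, adjusted p 0.00283).  Of 8 tested noncoding snoRNA host genes 3 fell (Snhg5, Snhg1 and Snhg20, 37.5%, against the same 18.4%), 5 did not pass and none rose (median −0.33). Gas5, a host of many box C/D snoRNAs, had 32.5 ± 1.25 CPM with trametinib and 33.6 ± 1.62 CPM with vehicle (SD, n = 3 each, log2 fold change −0.05, adjusted p 0.648).

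Among the 60 genes, 7 carry annotated snoRNA genes within their bounds on the same strand, 21 in all. These hosts are Nop56 with 5, Nop58 with 4, Ncl, Gnl3, Tsr1 and Wdr43 with 2 or 3 each, and Dkc1 with 1. All 7 hosts fell, as did 53 of the whole list of 60 and 18.4% of all genes tested. The snoRNAs themselves were almost unread: of 6 that have a row in the table, 5 had 0 counts in every library and Snord53, inside Wdr43, had 2, 2 and 2 counts in the trametinib libraries, against 6, 4 and 3 in the vehicle libraries, too few for a test. Exons of 24 of the 60 genes overlap an exon of a gene on the opposite strand, and the strand setting of the counting is not given in the sources used here. For 13 of the 60, another annotated gene matches the transcript at 95% identity or more over at least 200 bases on either strand. Among them are Nop56, Npm1, Fbl, Wdr12, Pes1 and Mrto4, with 4 such genes, all pseudogenes, for each of Nop56 and Npm1. The search did not leave out genes that overlap the member itself. Imp4, Noc2l, Tbl3, Tsr1 and Utp14a had 1 match each, not a pseudogene, and an opposite-strand exon overlap of at least 200 bases. For these genes the match may be that overlap and not a copy elsewhere. For the others, reads could have been split with or gained from the copies.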

How the data were processed

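RNA was sequenced from 6 ribosomal-RNA-depleted libraries. The authors deposited 1 table of whole-number read counts per gene without normalization. The submitters' processing notes name as tools featureCounts 1.6.4, HISAT2 2.1.0, R 3.6.0 and DESeq2 1.24.0, and mm10 as the build. The annotation, the strand setting and how multi-mapped reads were handled were not stated in those notes or the labels. The table's 25354 rows included 310 identical repeats, which were dropped, leaving 25044 genes, of which 25033 identifiers were named from GENCODE M21 on mm10. Libraries held 17453778 to 19648467 counts.

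Groups came from the labels. Counts were filtered with filterByExpr (11286 genes kept), scaled by TMM and tested with edgeR 4.0.16 (quasi-likelihood, robust, a single term for group, 4 residual degrees of freedom), with Benjamini-Hochberg adjustment over all genes tested and a threshold of 0.05. Each SE was taken as the absolute log2 fold change over the root of its F statistic. TPM used the longest APPRIS principal transcript of the basic set. Near-identical copies were sought with BLAST 2.17.0. Alternatives were DESeq2 1.42.0, limma-voom (limma 3.58.1), other size factors, other filters, a replicate block, and dropping 1 library at a time. R 4.3.3, Python 3.11.15, pandas 2.3.3, NumPy 2.4.6 and matplotlib 3.10.9 were used.

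Across all genes tested, libraries with the same replicate number deviated together from their group means (r = 0.346, 0.418 and 0.307). Differently numbered ones had r = −0.26 to −0.08. Because deviations from a group mean sum to 0, the negative values follow in part from the positive ones and are not separate evidence of pairing. The labels do not say what a number shares. Over the 60 members alone the same-number correlations were 0.13, −0.49 and −0.10, and those of different numbers ran from −0.51 to 0.49. A correlation over the members leaves out any shift that all of them share, and its values here spread widely in both signs. It thus cannot decide whether the libraries were paired by number. Chi-square per gene between replicates ran from 5.98 to 28.1, so no library was a copy of another. The members, classes and lists were chosen with earlier results of these data known. In each class the text gives in full the 4 members with the largest change, the 2 with the highest TPM and the 3 with the largest p, and all 4 multifunctional proteins; Dkc1, Nob1, Gnl3, Rrp1b, Myc and the genes named from the other lists were chosen after their values were seen.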

Additional observations from a re-analysis of the deposited data

How the results depend on the processing

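The count of assembly factors that fell, 53, lay between 50 and 54 over the 13 alternatives, 50 of the genes were lower in every one of them, and none was higher in any. With the replicate block 54 fell, since Rrp1 passed, and no other call among the 60 genes changed under the block. The block raised the number of all genes that changed from 3869 to 4837. Leaving out single libraries gave 50 to 53 genes lower, with 23 to 25 small-subunit, 6 to 7 snoRNP and 18 to 19 large-subunit genes. Over all genes tested, 3869 changed, and 2428 to 4663 when single libraries were left out, the fewest without trametinib replicate 1 and 2538 without vehicle replicate 1. The sign of the fold change turned for Fbl without trametinib replicate 2 (0.24) and vehicle replicate 2 (0.33), and for Npm1 without trametinib replicate 3 (0.0061). Over single libraries left out, Fbl ranged from −0.36 to 0.33 and Npm1 from −0.0933 to 0.0061. The cause was not tested. Gar1 had 301 counts over 6 libraries, the lowest sum of the 60 genes.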
